A study of Mus musculus with 6 samples.

Results

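The 10 genes described here, *Eef1a1*, *Eef1b2*, *Eef1d*, *Eef1g*, *Eef2*, *Tpt1*, *Naca*, *Btf3*, *Pabpc1* and *Rack1*, encode translation factors and related proteins, other than ribosomal proteins, whose mRNAs are known as TOP mRNAs. They were taken by name from the 25690 gene symbols in the tables. All 10 had counts in every library and were among the 15474 genes with enough counts for a test. RNA was sequenced from CD27SP NK cells, an immature NK cell subset sorted from the BM as NK1.1+CD27+CD11b− cells with CD3+ cells gated out, to ask which transcripts change when Myc is missing. The control mice were Ncr1cre Myc wt/wt and the deficient mice Ncr1cre Myc fl/fl, with 3 libraries of each numbered 1, 2 and 4. Both genotypes carry Ncr1cre, which expresses the Cre recombinase from the locus of the NK cell receptor NKp46, on the C57BL/6 background, and they differ in the floxed *Myc* allele. The study describes the deletion of *Myc* as taking place in immature NK cells, which are the cells sorted here. The methods describe young adult mice matched for sex and age, without an age for each library, and no source says whether a library holds 1 mouse or pooled mice, so p-values measure the spread between these libraries.

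TOP mRNAs carry a terminal oligopyrimidine motif, which is a cytidine at the cap followed by an unbroken run of pyrimidines. Growth signals through the kinase mTORC1 control how well these mRNAs are translated, and the protein LARP1 binds their capped starts when mTORC1 is inactive. Most TOP mRNAs encode ribosomal proteins, and the others encode mainly factors that work on the ribosome. Myc is a transcription factor that binds E-boxes and is known for raising the expression of ribosomal and translation genes in dividing cells.

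Where this motif lies in the annotation was read for the most abundant protein-coding transcript of each member (GENCODE M21, GRCm38). Abundance here was the mean TPM over all libraries, which scales counts by transcript length and by the library's total. The first 30 bases are printed 5′ to 3′ for 5 members, with the longest run of pyrimidines in capitals. The first 2 begin with a cytidine inside a run of at least 5 pyrimidines, the next 2 begin with a run of thymidines and cytidines, and in *Eef2* the longest run starts at base 15.
Pabpc1-201: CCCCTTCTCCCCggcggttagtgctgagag
Rack1-201: CTTTTTCTCCacagggtcgtggtggcagcc
Eef1a1-201: TTCCCgagggtgggggagaacggtatataa
Eef1g-201: TTTCCaactcagcggggctgtagacggaac
Eef2-201: gttgacgtcagcggTCTCTTCCgccgcagc
These stretches lie in first exons at chr15:36608944-36608973 on the minus strand (*Pabpc1*), chr11:48800360-48800389 on the plus strand (*Rack1*), chr9:78481695-78481724 on the minus strand (*Eef1a1*), chr19:8967041-8967070 on the plus strand (*Eef1g*) and chr10:81176631-81176660 on the plus strand (*Eef2*). A cytidine start with at least 5 leading pyrimidines was found in 3 of the 10 members, in 11 of 79 ribosomal protein genes (13.9%) and in 422 of 17401 protein-coding genes (2.43%). *Eef1d* and *Tpt1* had such a start only in other annotated transcripts, Eef1d-217 and Tpt1-206. An annotated start can lie some bases from the start a cell uses, and starts were not measured in these libraries.

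The E-box CACGTG, which reads the same on both strands, was looked for in the RefSeq promoters of GRCm38.p6, from 250 bases before to 50 bases after a start. Of the members, 7 matched this table with 8 starts, and *Eef1d*, *Eef1g* and *Pabpc1* did not match. The letters were present at 1 of the 8 starts, that of *Eef2*, against 2349 of all 32851 promoters (7.15%). There they begin 43 bases before the start, in the stretch chr10:81176576-81176605 on the plus strand, printed with the E-box in capitals because it is the only match among the members.
Eef2 promoter: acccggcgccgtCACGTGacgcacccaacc
A match describes letters and not a binding site, and these libraries hold no measurement of binding.

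Summed estimated counts lay between 54.6 and 65 Mio in 5 libraries and were 8.1 Mio in wt/wt library 1, which therefore stands apart in depth. Even there, *Eef1b2*, the member with the fewest counts, had 999 estimated counts. The error from counting reads was therefore small for every member, though reads are not counts of molecules. *Myc* had between 164.3 and 200.5 counts per Mio (CPM, scaled by TMM normalization) in the wt/wt libraries and between 61.5 and 76.5 in the fl/fl libraries, 37.0% of the wt/wt mean, in accord with the genotype labels. The defining NK cell markers *Ncr1*, *Klrb1c* and *Cd27* were present in all 6 libraries at 225.3 CPM or more.

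All 10 members were lower in the fl/fl libraries, and for each of them every fl/fl library lay below every wt/wt library. Genes separated in this way made up 15.1% of all tested genes. Of the 10 members, 6 fell past the limits that the study set (adjusted p below 0.01 and a log2 fold change of at least 0.5 in size), applied here to edgeR's quasi-likelihood test and called the threshold below, namely *Rack1*, *Eef1a1*, *Eef1b2*, *Eef1g*, *Pabpc1* and *Eef2*. The share of all tested genes that fell past it was 0.872%. The study's own rule asks that a gene meet the limits in each of 3 methods (edgeR, limma-trend and DESeq2), and by it 4 members fell, *Rack1*, *Eef1b2*, *Eef1g* and *Eef2*, against 0.64% of all tested genes. *Eef1a1* and *Pabpc1* missed it with an adjusted p of 0.0105 and 0.0111 in limma-trend. With the limit on the adjusted p at 0.05 and none on the fold change, 8 members were lower, against 3.38% of all tested genes. The median log2 fold change was −0.85 for the members and 0.01 for all tested genes. *Eef1a1*, *Eef1b2*, *Eef1g* and *Rack1* are among the genes that the study selected for display. The calls of all members come from the same libraries that the study analysed, so none of them is independent evidence.

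**Figure D1:**
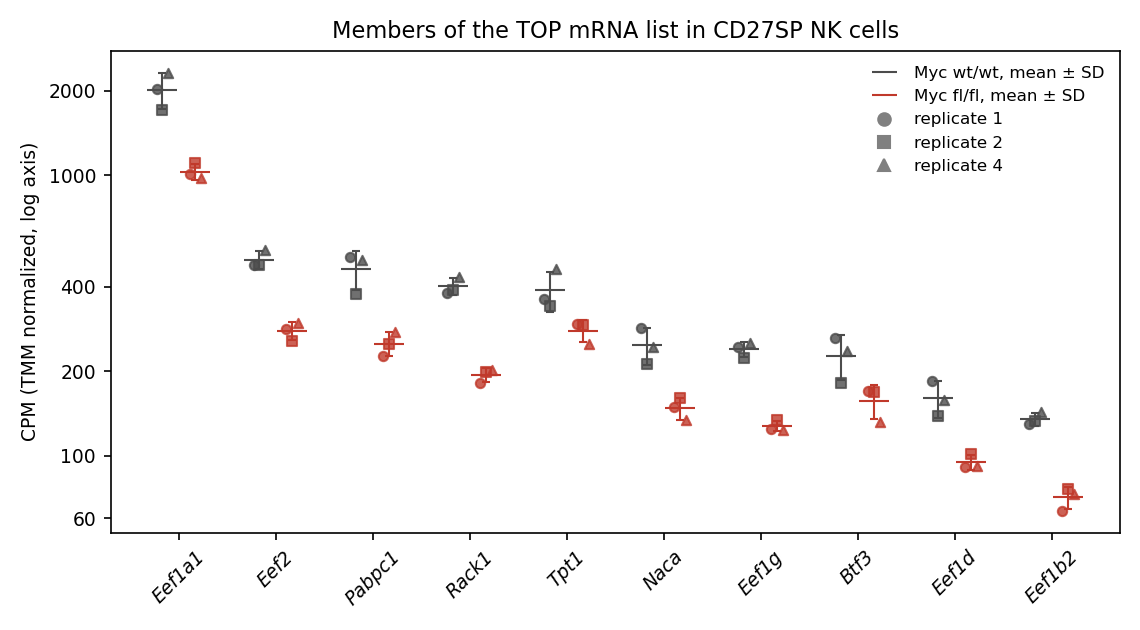
CPM of each member in the 6 libraries on a log axis, with wt/wt libraries in grey, fl/fl libraries in red, a symbol for each replicate number, and bars at the mean ± SD (n = 3). For every member the 3 red points lie below the 3 grey points, with the narrowest gap for *Btf3*.

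The elongation factor eEF1A, encoded by *Eef1a1*, brings aminoacyl-tRNA to the ribosome and is among the most abundant proteins of a cell. *Eef1a1* (ENSMUSG00000037742.14, chromosome 9 of GRCm38 from 78478449 to 78489151) had 2033, 1703 and 2305 CPM in wt/wt libraries 1, 2 and 4 and 1006, 1103 and 974.4 CPM in fl/fl libraries 1, 2 and 4. The wt/wt libraries spread more widely, with library 2 lowest, yet its value stayed well above the highest fl/fl value. The log2 fold change was −0.96 ± 0.16 (SE, adjusted p = 0.00760, edgeR), which left 51.0% of the wt/wt mean.

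The next 3 genes encode the subunits of eEF1B, the complex that exchanges the guanine nucleotide on eEF1A so that it can be used again. *Eef1b2*, encoding the exchange subunit eEF1Bα (ENSMUSG00000025967.16, chromosome 1, 63176825 to 63180486), had 129.8, 132.6 and 143.1 CPM in the wt/wt libraries and 63.6, 76.4 and 73.0 CPM in the fl/fl libraries. It was the member with the closest agreement among wt/wt libraries, and its fl/fl libraries were all far below them (log2 fold change −0.93 ± 0.13 SE, adjusted p = 0.00507, edgeR). *Eef1g*, encoding the structural subunit eEF1Bγ (ENSMUSG00000071644.10, chromosome 19, 8967041 to 8978479), had 244.0, 222.3 and 251.6 CPM in the wt/wt and 124.8, 133.8 and 123.9 CPM in the fl/fl libraries. The log2 fold change of −0.91 ± 0.14 (SE, adjusted p = 0.00564, edgeR) was close to that of *Eef1b2*. *Eef1d*, encoding a second exchange subunit, eEF1Bδ (ENSMUSG00000055762.16, chromosome 15, 75894205 to 75909556), had 185.3, 138.2 and 157.4 CPM in the wt/wt and 91.1, 101.8 and 91.9 CPM in the fl/fl libraries. Although these values do not overlap, *Eef1d* did not pass the threshold (log2 fold change −0.75 ± 0.15 SE, adjusted p = 0.0177, edgeR), and its difference was −0.44 between the libraries numbered 2 against −1.02 between those numbered 1.

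After each peptide bond, eEF2 moves the ribosome along the mRNA by 1 codon. Its gene *Eef2* (ENSMUSG00000034994.10, chromosome 10, 81176631 to 81182498) had 476.3, 479.3 and 539.6 CPM in the wt/wt libraries and 283.1, 255.6 and 297.6 CPM in the fl/fl libraries. Both groups were tight, and the log2 fold change was −0.84 ± 0.13 (SE, adjusted p = 0.00644, edgeR), with differences from −0.91 to −0.75 between same-numbered libraries.

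RACK1 is a scaffold protein that sits on the small ribosomal subunit, and PABPC1 binds the poly(A) tail and joins it to the initiation machinery at the cap. *Rack1* (ENSMUSG00000020372.15, chromosome 11, 48800332 to 48806434) had 381.4, 390.7 and 434.2 CPM in the wt/wt libraries and 181.0, 199.3 and 202.0 CPM in the fl/fl libraries. It fell by 1.05 ± 0.13 on the log2 scale (SE, adjusted p = 0.00314, edgeR), and its fl/fl mean was 48.3% of the wt/wt mean. With all libraries this was the lowest estimate of the 10 members, whereas without the libraries numbered 2 *Eef1a1* was lower, at −1.12 against −1.08. *Pabpc1* (ENSMUSG00000022283.15, chromosome 15, 36595661 to 36609668) had 509.9, 377.5 and 496.8 CPM in the wt/wt libraries and 227.1, 249.4 and 276.5 CPM in the fl/fl libraries. Its log2 fold change was −0.87 ± 0.15 (SE, adjusted p = 0.00937, edgeR), which lies just inside the limit of 0.01.

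*Naca* and *Btf3* encode the α and β subunits of the nascent polypeptide-associated complex, a dimer that meets new chains as they leave the ribosome. *Naca* (ENSMUSG00000061315.14, chromosome 10, 128035575 to 128048637) had 286.1, 212.1 and 243.4 CPM in the wt/wt libraries and 149.6, 160.2 and 133.8 CPM in the fl/fl libraries. *Btf3* (ENSMUSG00000021660.14, chromosome 13, 98309896 to 98317006) had 263.6, 181.8 and 236.1 CPM in the wt/wt libraries and 170.0, 168.6 and 131.6 CPM in the fl/fl libraries. For *Btf3* the lowest wt/wt library, number 2, was only a little above the highest fl/fl libraries, and the gap was 5.20% of the wt/wt mean. Neither gene passed the threshold. The log2 fold change was −0.73 ± 0.15 (SE, adjusted p = 0.0185, edgeR) for *Naca* and −0.53 ± 0.16 (SE, adjusted p = 0.0835, edgeR) for *Btf3*.

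*Tpt1* encodes TCTP, an abundant protein linked to growth and survival and a classical TOP mRNA. *Tpt1* (ENSMUSG00000060126.14, chromosome 14, 75845093 to 75848525) had 362.7, 340.7 and 461.4 CPM in the wt/wt libraries and 294.7, 291.5 and 249.7 CPM in the fl/fl libraries. Its difference did not pass (log2 fold change −0.47 ± 0.16 SE, adjusted p = 0.111, edgeR). Between same-numbered libraries it was −0.30, −0.22 and −0.89 for numbers 1, 2 and 4, so the libraries numbered 4 differed most, and without them the estimate was −0.28. With all libraries the estimate was nearer 0 than those of the other members, but *Btf3* was nearer without the libraries numbered 1 (−0.48 against −0.56) and in a fit that ignored the replicate numbers and left out wt/wt library 1 alone (−0.43 against −0.54).

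**Figure D2:**
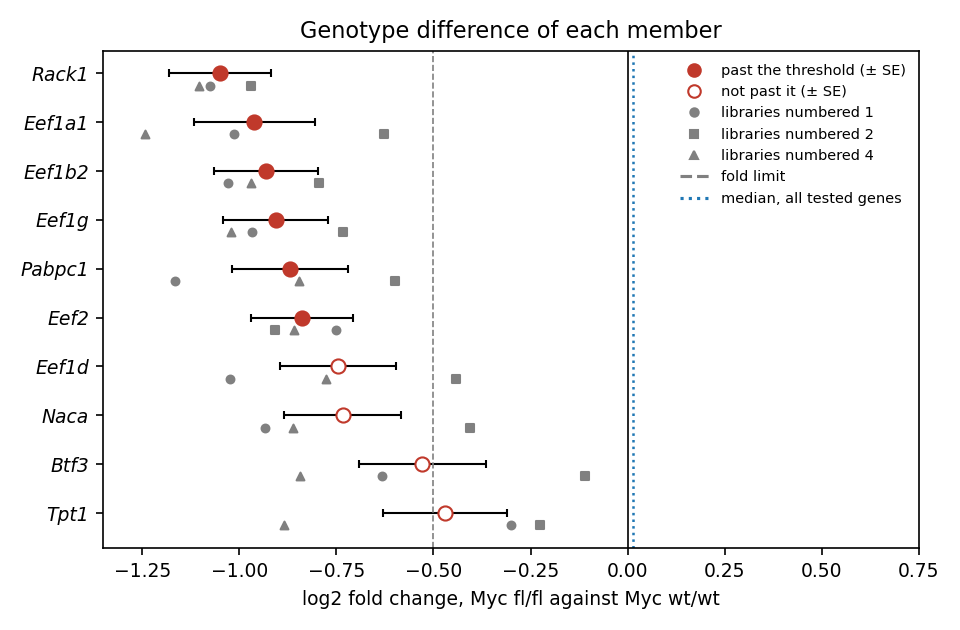
Log2 fold change of each member, fl/fl against wt/wt, from edgeR with its SE (red, filled where the gene passed the threshold) and the differences between same-numbered libraries (grey symbols). The 10 estimates run from −1.05 for *Rack1* to −0.47 for *Tpt1*, the grey symbols run from −1.24 for *Eef1a1* to −0.11 for *Btf3*, and the dotted line marks the median of all tested genes at 0.01.

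The calls depended on the libraries more than the fold changes did. Without both libraries numbered 1, 0 members passed in edgeR, although 10 had an unadjusted p below 0.05 and 6 an adjusted p below 0.05, limits that 8.89% and 1.69% of all tested genes met as lower. Without those numbered 2, *Eef1a1* and *Rack1* passed, and without those numbered 4, *Rack1* passed. With wt/wt library 1 alone left out, and the replicate number not in the fit, 5 members passed, all of the 6 but *Pabpc1*. When offsets from the effective transcript lengths were used, 0 members passed in edgeR, with 10 at an unadjusted p below 0.05 (8.94% of all tested genes, lower) and 7 at an adjusted p below 0.05 (1.67%), and with library sizes in place of TMM factors *Rack1* alone passed. Fits without the libraries numbered 1, 2 and 4 placed 0.0636%, 0.3% and 0.735% of all tested genes lower past the threshold, against 0.814% without wt/wt library 1, 0.0388% with the offsets and 0.162% with library sizes. DESeq2 called 8 members lower, adding *Eef1d* and *Naca*, against 3.54% of all tested genes, and limma-trend called 4, against 0.64%. All 10 members were lower in each of the 15 other settings, in which their median log2 fold change ranged from −0.94 to −0.80.

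**Figure D3:**
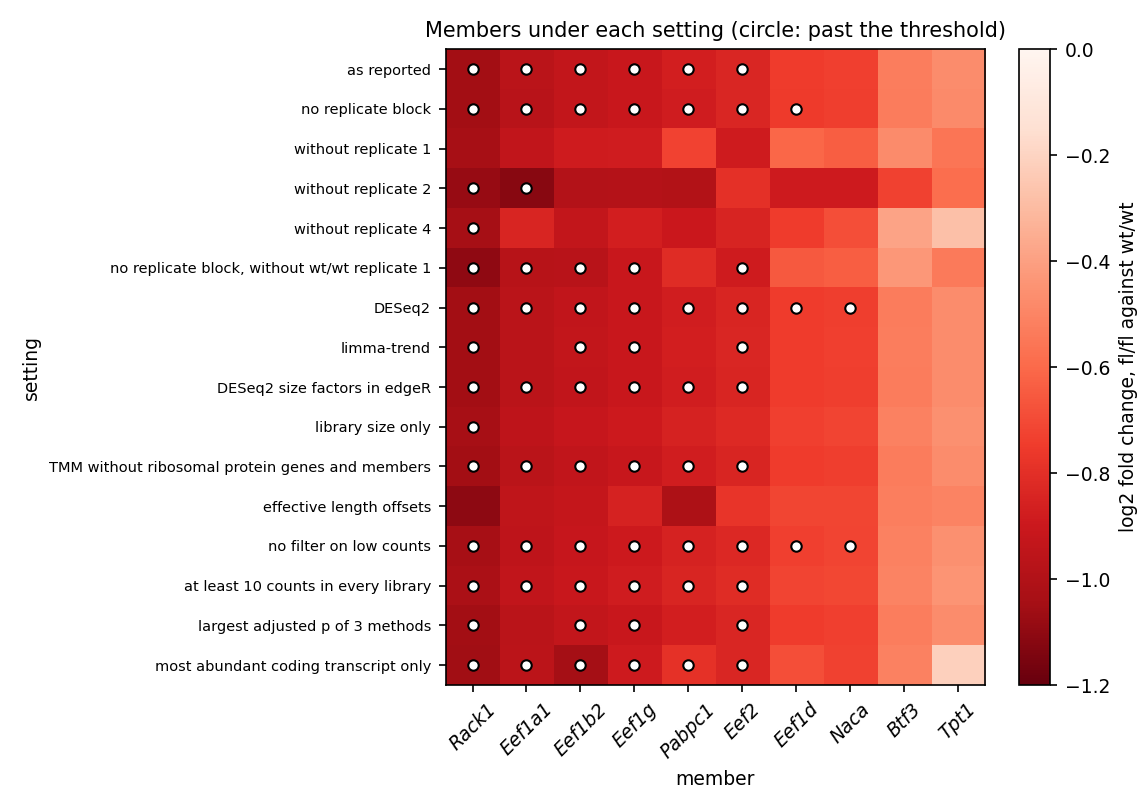
Log2 fold change of the 10 members (columns) in the fit as reported and 15 other settings (rows), shaded from 0 (white) to −1.2 (dark red), with a circle where the member passed the threshold. *Rack1* has a circle in 14 of the 16 rows, and *Btf3* and *Tpt1* have none.

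The share of all estimated counts needs no scaling between libraries. The 10 members together held 0.463%, 0.427% and 0.531% of the counts in wt/wt libraries 1, 2 and 4 and 0.263%, 0.275% and 0.253% in fl/fl libraries 1, 2 and 4. Mean shares of 0.474 ± 0.0528% in wt/wt and 0.264 ± 0.0106% in fl/fl libraries (SD, n = 3 each) resulted, without overlap. A two-sided exact permutation test gave p = 0.10, and no smaller p can be reached with 3 libraries a genotype. For wt/wt library 1, the shallowest, the 95% Wilson interval was from 0.458% to 0.468%, which covers counting error only. The fl/fl share was thus 55.6% of the wt/wt share, beside 51.8% for the 79 ribosomal proteins and 68.8% for mitochondrially encoded genes, whose share was 1.35 ± 0.232% and 0.929 ± 0.148%. In bulk RNA, fewer cells of a type and less RNA per cell cannot be told apart.

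Whether the members shifted by like amounts was asked by ratios within a library, 12 in all, which do not depend on scaling either. *Tpt1* and *Btf3* were higher relative to *Eef1a1* in the fl/fl than in the wt/wt libraries. The log2 ratio of *Tpt1* to *Eef1a1* was −2.49, −2.32 and −2.32 in the wt/wt libraries and −1.77, −1.92 and −1.96 in the fl/fl libraries. For *Btf3* to *Eef1a1* it was −2.95, −3.23 and −3.29 in the wt/wt and −2.56, −2.71 and −2.89 in the fl/fl libraries. Neither pair of groups overlapped in these counts, with mean differences of 0.49 and 0.43 on the log2 scale. With TPM in place of counts the groups overlapped for *Btf3* to *Eef1a1*, where the difference was 0.42 (two-sided exact permutation test, p = 0.20). The subunits of the nascent polypeptide-associated complex shifted against each other by less, from a mean log2 ratio of *Naca* to *Btf3* of 0.13 ± 0.09 to −0.08 ± 0.11 (SD, n = 3 each), again without overlap. In counts, each of these 3 ratios had p = 0.10 (two-sided exact permutation test) and an adjusted p of 0.40 over the 12 ratios, so the design cannot place them past 0.05.

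The groups overlapped for the other 7 ratios to *Eef1a1* and for the 2 ratios that remain. The ratio of *Eef1b2* to *Eef1g*, subunits of the same complex, had mean log2 values of −0.82 ± 0.08 and −0.85 ± 0.11 (SD, n = 3 each, exact permutation p = 0.70, two-sided). The summed members against the summed ribosomal protein genes had mean log2 ratios of −2.26 ± 0.08 in wt/wt and −2.15 ± 0.07 in fl/fl (SD, n = 3 each, exact permutation p = 0.20, two-sided). These p-values do not show that the ratios were equal.

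**Figure D4:**
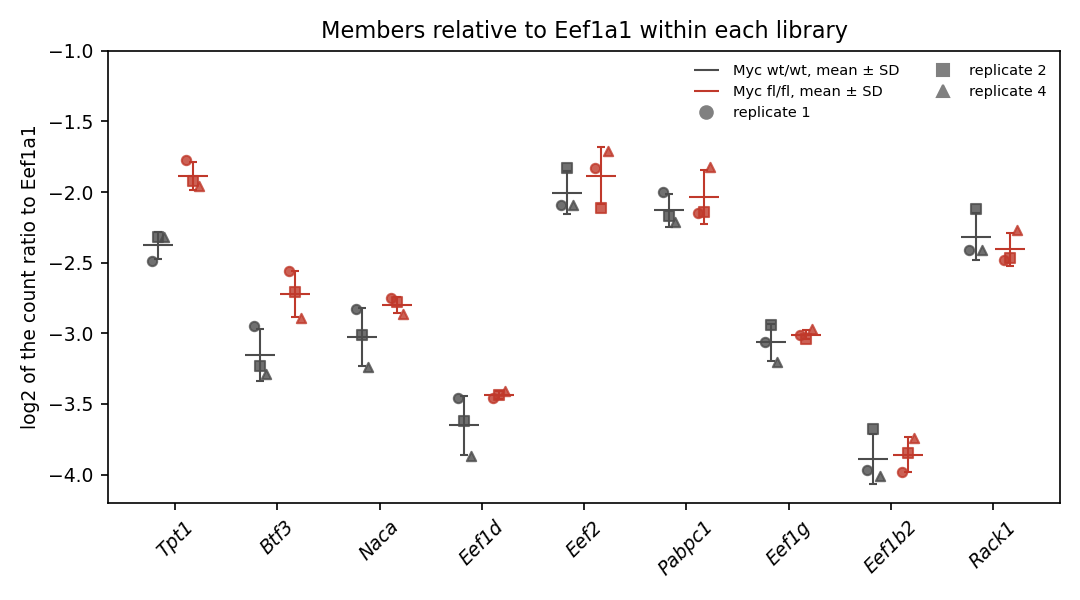
Log2 ratio of the estimated counts of 9 members to those of *Eef1a1* within each library (grey, wt/wt; red, fl/fl; symbols, replicate numbers; bars, mean ± SD, n = 3). The red points lie above the grey points without overlap for *Tpt1* and *Btf3*, and the groups overlap for the other 7 members.

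Levels of different genes were compared per length, as TPM, which scales counts by transcript length and by the library's total. In wt/wt libraries the order was *Eef1a1* (1988 ± 234.3 TPM), *Tpt1* (783.4 ± 99.7), *Rack1* (543.5 ± 44.3), *Naca* (463.1 ± 42.4), *Btf3* (428.1 ± 65.6), *Pabpc1* (401.9 ± 104.7), *Eef1d* (302.2 ± 39.4), *Eef1b2* (287.8 ± 9.67), *Eef2* (250.5 ± 31.4) and *Eef1g* (205.4 ± 9.41 TPM, SD, n = 3 each). The ranges over libraries of *Naca*, *Btf3*, *Pabpc1*, *Eef1d* and *Eef1b2* overlapped from each to the next, and those of the other neighbours did not. Within each wt/wt library *Naca* was nevertheless above *Btf3* and *Pabpc1* above *Eef1d*, whereas *Btf3* and *Pabpc1*, and likewise *Eef1d* and *Eef1b2*, changed places between libraries. In fl/fl libraries the order by mean TPM was the same except for 3 genes. *Btf3* at 313.2 ± 39.4 and *Naca* at 297.4 ± 24.4 TPM had higher means than *Rack1* at 266.1 ± 12.9 TPM (SD, n = 3 each). These 3 ranges overlapped, and in fl/fl library 4 the order was the reverse, with *Rack1* at 280.7, *Naca* at 270.5 and *Btf3* at 268.6 TPM. The place of *Tpt1* rests on a transcript without an annotated coding sequence. Tpt1-204 had 489.9 ± 89.2 TPM and the coding transcript Tpt1-201 had 203.0 ± 100.5 TPM in wt/wt libraries (SD, n = 3 each). The place of *Rack1* rests in part on Rack1-202, also without a coding sequence, at 190.5 ± 42.4 TPM. The coding Rack1-201 had 267.2 ± 46.1 TPM there, below Naca-201 (462.8 ± 42.4) and Btf3-205 (377.8 ± 45.8). In fl/fl libraries these coding transcripts had 136.2 ± 5.74, 297.2 ± 24.4 and 279.9 ± 45.3 TPM (SD, n = 3 each).

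The tables are per transcript, and 17 transcripts held at least 10% of the counts of their gene in either genotype. All 17 had a lower mean CPM in fl/fl libraries, and 13 did so without overlap. Of 28520 such transcripts of all tested genes, 49.1% had a lower mean and 11.1% were lower without overlap. *Eef1a1*, *Eef1g*, *Eef2*, *Naca* and *Btf3* rested almost wholly on 1 coding transcript each, with between 89.5% and 99.7% of the counts in every library. *Tpt1* was divided, with Tpt1-201 at 19.4%, 45.8% and 44.6% of its counts in the wt/wt libraries and 44.9%, 38.5% and 40.1% in the fl/fl libraries. The shallow wt/wt library 1 is the outlying library here, and its share fell outside the range of the other 5 libraries for 14 of the 17 transcripts. The CPM of Tpt1-201 were 70.2, 155.9 and 205.6 in wt/wt and 132.4, 112.2 and 100.2 in fl/fl libraries, which overlap. When each member was represented by its most abundant coding transcript only, *Tpt1* had a log2 fold change of −0.21 (adjusted p = 0.751, edgeR), and the 6 genes past the threshold were the same as with whole genes.

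Processed pseudogenes can share reads with these genes. GENCODE M21 annotates 72 pseudogene copies of at least 200 aligned bases and 80% identity to a member, from 1 for *Eef1b2* and *Rack1* to 16 for *Btf3* and 22 for *Eef1a1*, and 0 of the 72 are in the tables. Reads from such copies, if any, could have been assigned to the parent gene or left unassigned, and their part in the values was not tested.

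The related lists were the cytosolic ribosomal proteins, other TOP mRNAs, paralogues and partners of the members, and regulators of TOP mRNAs. Of the 79 ribosomal protein genes, 47 fell past the threshold, against 0.872% of all tested genes, and the median was −0.93. This count was 5, 25 and 17 without the libraries numbered 1, 2 and 4, 11 with library sizes in place of TMM factors, 0 in edgeR with effective length offsets and 71 in DESeq2. The smallest adjusted p belonged to *Rps19* (−1.30 ± 0.14 SE). *Rpsa* (−1.25 ± 0.14 SE) and *Rps2* (−1.21 ± 0.14 SE) came next with the same adjusted p. The range of the members, from −1.05 to −0.47, lies inside that of the ribosomal protein genes, from −1.74 to −0.40. Of 16 other TOP mRNAs and host genes listed, 10 were matched in the tables, mainly initiation factor subunits, and the other 6 were not analysed here. All 10 were tested, 1 fell past the threshold and the median was −0.51. That gene was *Npm1*, the nucleolar chaperone nucleophosmin, from 416.7 ± 60.4 to 190.5 ± 15.3 CPM (SD, n = 3 each; log2 fold change −1.12 ± 0.16 SE, adjusted p = 0.00447, edgeR). *Eif3f*, a subunit of the initiation factor eIF3, had a log2 fold change of −0.78 ± 0.14 (SE, adjusted p = 0.0124, edgeR), and *Eif4a2*, a helicase of the cap complex, one of −0.00052 ± 0.13 (SE).

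Of 23 tested paralogues and partners, such as the enzymes that make diphthamide on eEF2, 0 passed the threshold in edgeR, 9 had an unadjusted p below 0.05, and the median was −0.24. Of all tested genes, 2.15% passed in either direction in edgeR and 22.5% had an unadjusted p below 0.05. DESeq2 called 2 of the 23, near its share of 7.71% of all tested genes, and limma-trend 0. The smallest adjusted p belonged to *Dph5*, a methyltransferase of diphthamide synthesis, with 69.3 ± 17.6 CPM in wt/wt and 35.1 ± 4.00 in fl/fl libraries (SD, n = 3 each; log2 fold change −0.95 ± 0.18 SE, adjusted p = 0.0119, edgeR). *Pabpc4*, a paralogue of *Pabpc1*, had 13.1 ± 1.88 and 7.34 ± 0.826 CPM (SD, n = 3 each; log2 fold change −0.83 ± 0.21 SE, adjusted p = 0.0420, edgeR).

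Of the 23 regulators, 0 passed in edgeR, 4 had an unadjusted p below 0.05, and the median was −0.12. Both this 4 of 23 and the 2 that DESeq2 called are near or below the shares of all tested genes, 22.5% and 7.71%, and limma-trend called 0. *Larp1*, the TOP mRNA binding protein, had 166.2 ± 21.6 CPM in wt/wt and 86.6 ± 22.3 in fl/fl libraries (SD, n = 3 each; log2 fold change −0.97 ± 0.18 SE, adjusted p = 0.0134, edgeR). *Tsc2*, an inhibitor of mTORC1, had 41.8 ± 2.04 and 62.5 ± 3.56 CPM (SD, n = 3 each; log2 fold change 0.58 ± 0.14 SE, adjusted p = 0.0368, edgeR). *Mtor* itself had a log2 fold change of 0.13 ± 0.18 (SE, adjusted p = 0.740, edgeR), a gene named after its value was seen.

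**Figure D5:**
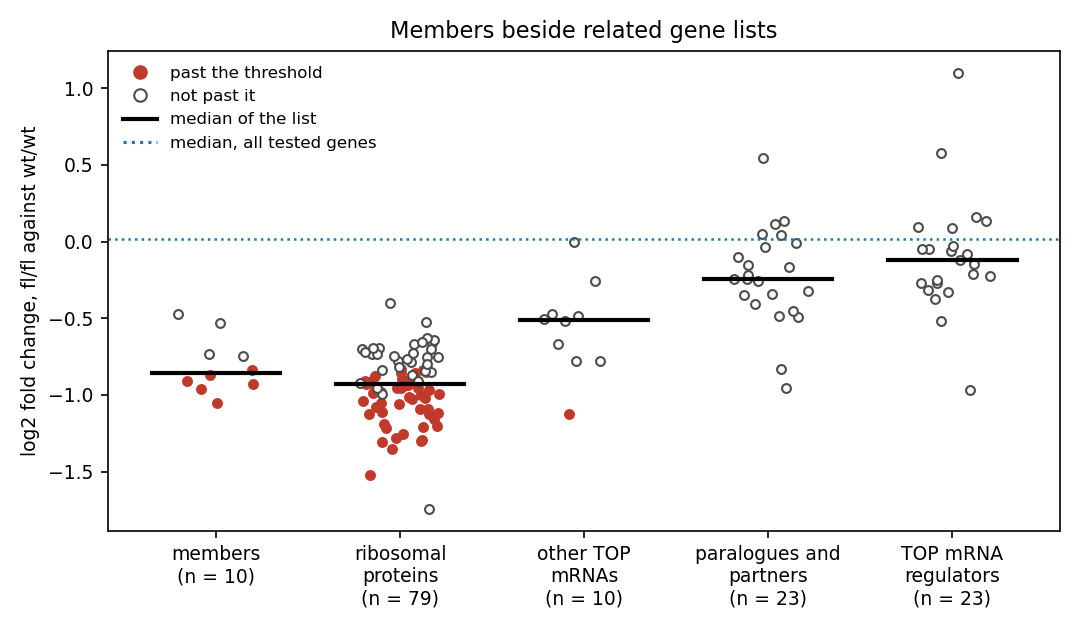
Log2 fold change, fl/fl against wt/wt, of each tested gene in the list of members and 4 related lists (red, past the threshold; white, not past it; bar, median of the list; dotted line, median of all tested genes at 0.01). The medians run from −0.93 for ribosomal proteins and −0.85 for the members to −0.51, −0.24 and −0.12 for other TOP mRNAs, paralogues and partners, and regulators.

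The pattern over the 6 libraries was compared with that of every tested gene outside these lists, by the mean absolute difference between centred log2 CPM values and the mean of the members. The 5 nearest genes were *Rpl27-ps3* (0.0435), *Cmss1* (0.0497), *Apex1* (0.0635), *Olfr635* (0.0649) and *Gemin6* (0.0689). The members themselves differed from their own mean by 0.0514 (*Eef1g*) to 0.172 (*Btf3*). *Rpl27-ps3*, a ribosomal protein pseudogene that can share reads with its parent, had 180.2, 158.0 and 193.3 CPM in the wt/wt and 94.3, 104.2 and 90.3 CPM in the fl/fl libraries, the only 1 of these 5 past the threshold.

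Markers of other blood cells moved with the genotype. Of all 15474 tested genes, 198 were higher past the threshold in edgeR. Of 7 basophil and mast cell markers, 7 were higher past the threshold in edgeR, and their summed level was 14.8 to 18.4 CPM in wt/wt and 120.1 to 329.1 CPM in fl/fl libraries. *Prss34*, a basophil protease, rose from at most 3.92 CPM to between 56.2 and 178.0 CPM. For neutrophils and myeloid progenitors, 4 of 8 markers passed and the sums were 85.4 to 138.9 and 537.4 to 892.8 CPM. For erythroid cells, 3 of 6 passed, with sums of 16.9 to 96.8 and 194.6 to 369.7 CPM, and for monocytes and dendritic cells 3 of 6 passed, with sums of 1663 to 1866 and 2087 to 2377 CPM. Most of the last sum is *Ccr2*, at 1417 to 1724 and 1670 to 2019 CPM, which did not pass in edgeR (adjusted p = 0.305, log2 fold change 0.25), whereas *Csf1r* was at 2.34 to 3.34 and 9.82 to 11.4 CPM (log2 fold change 1.90). The T cell markers summed to 253.8 to 509.0 and 272.8 to 358.4 CPM, and 0 of 6 passed in edgeR. CD3+ cells were gated out in the sort, and whether T cells remained was not tested. Of the mature NK cell markers 1 of 5 was lower past the threshold (*S1pr5*), with sums of 122.1 to 195.1 and 129.5 to 140.2 CPM, and of the NK cell markers 0 of 10 passed in edgeR, with sums of 12860 to 13970 and 15940 to 16670 CPM. No marker of these lists was at 0 in all 6 libraries. The part of these cells in the values of the members was not tested.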

How the data were processed

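The deposited tables give, for each of 100583 mouse transcripts, an estimated count, which is not normalized, and a TPM value, both made by the authors in each library. The submitters' processing notes name Salmon and GRCh38, whereas the identifiers are those of mouse and the columns are those of kallisto. The study's methods state that the nf-core RNA-seq workflow ran with its defaults. RNA was reverse transcribed with the SMART-Seq v4 kit, which amplifies cDNA by PCR, and read counts are not counts of molecules.

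Estimated counts were summed by symbol through GENCODE M21 (100239 transcripts matched, at most 0.169% of counts unmatched), rounded, filtered with filterByExpr and normalized by TMM. Genotypes were compared with edgeR 4.0.16 (quasi-likelihood test) in R 4.3.3. The replicate number entered as a block, since the study's results call the comparison paired, without saying what forms a pair. Benjamini-Hochberg adjustment of p-values ran over all 15474 genes. DESeq2 1.42.0 and limma 3.58.1 were alternatives. Ratios and shares were compared by exact permutation tests (SciPy 1.17.1). Replicates were distinct libraries (chi-square of their counts from 36.5 to 91.9 per degree of freedom).

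The members, lists and tests were chosen with earlier results of these data known. The genes named are all 10 members, 2 genes per other list, those of smallest adjusted p, any gene past the threshold in a list with 5 or fewer such genes, transcripts with at least 10% of a member's counts, and the 5 genes nearest in pattern. *Rps2*, tied with *Rpsa*, and *Eif4a2*, *Mtor*, *Prss34*, *S1pr5*, *Ccr2*, *Csf1r* and the NK cell markers were named outside this rule. Of the marker lists, 1 is not reported here. Pseudogene copies were found by aligning every quantified transcript of the members, coding or not, with blastn.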

Additional observations from a re-analysis of the deposited data

How the results depend on the processing

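Each of the 150 log2 fold changes of single members in other settings was below 0. Of these, 114 kept their side of the threshold, 31 no longer passed and 5 passed in addition. Same-numbered libraries shared little of their deviation from the genotype means, which cannot show whether they were paired. The correlations of deviations from the genotype means between same-numbered libraries were −0.012, −0.020 and 0.051 for numbers 1, 2 and 4, below 0.1, and wt/wt libraries 1 and 2 correlated more with a library of another number. Without the replicate block, 7 members passed, with *Eef1d* added (adjusted p = 0.00892, edgeR), 184 genes were lower and 203 higher, and 2 other TOP mRNAs passed. The count of members ranged from 0 to 2 when the libraries of 1 number were left out, was 1 with library size only and 0 with effective length offsets. Over all genes, the count of lower genes ranged from 10 to 114 and of higher genes from 49 to 162 without 1 number. It was 25 and 49 with library size only, 6 and 24 with effective length offsets, 548 and 645 in DESeq2, 378 and 524 when low counts were not filtered, and 523 and 689 with an adjusted p below 0.05 as the only limit. Higher genes numbered 113 without wt/wt library 1 and without the block.

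Ribosomal protein genes past the threshold ranged from 5 to 25 without 1 number and were 11 with library size only, 0 with effective length offsets, 71 in DESeq2 and 71 at an adjusted p below 0.05. Other TOP mRNAs numbered 0 to 1 without 1 number, 0 with effective length offsets, 5 in DESeq2, 4 with no filter and 4 at an adjusted p below 0.05. Paralogues and partners, and likewise regulators, numbered 2 in DESeq2, 1 with no filter and 2 at an adjusted p below 0.05. Fewer samples are part of the construction of the fits without 1 number. For the other settings the cause was not tested.

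The difference in log2 ratio to *Eef1a1* turned its sign for 5 ratios with overlapping groups. Without replicate 4 it was −0.091 for *Eef1b2* (up to 0.128 without another number), −0.028 for *Eef1g* (up to 0.135), −0.008 for *Eef2* (up to 0.324) and −0.061 for *Pabpc1* (up to 0.213), and with TPM −0.075 for *Pabpc1*. Without replicate 2 it was 0.039 for *Rack1* (down to −0.202). The other 7 ratios and the share of counts kept their direction in every setting. Adding the counts of pseudogenes named after a member was not run, because 0 such pseudogenes are in the tables. With 3 libraries a group, permutation tests cannot go below 0.10.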
